A study of Arabidopsis thaliana with 6 samples.

Results

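The 9 genes described here encode transcription factors of the jasmonate pathway of Arabidopsis thaliana, and they were taken by gene identifier from a table of 27371 genes. They are MYC2 (AT1G32640), MYC3 (AT5G46760), MYC4 (AT4G17880), JAM1 (AT2G46510), JAM2 (AT1G01260), JAM3 (AT4G16430), ANAC019 (AT1G52890), ANAC055 (AT3G15500) and ANAC072 (AT4G27410). They fall into 3 roles: the activators MYC2, MYC3 and MYC4, the repressors JAM1, JAM2 and JAM3, and the NAC factors ANAC019, ANAC055 and ANAC072. Their transcripts were measured by paired-end RNA sequencing in whole seedlings aged 14 days, grown on plates in long days, of the insertion line ahl13-1 (SALK_014014), which is mutated in the AT-hook gene AHL13. Controls were 3 libraries of ahl13-1, and the treated group was 3 libraries of ahl13-1 sprayed for 24 hours with Pst hrcC, a mutant of the bacterium Pseudomonas syringae that cannot inject effector proteins through type III secretion, at an OD600 of 0.002. All 6 libraries carry the same insertion, 1 allele of 1 line, and no wild-type library is analysed here; every comparison is of treatment within the mutant. What the control seedlings received is not stated in the labels. The series title concerns AHL13 in immunity triggered by microbial patterns, so the comparison asks what the treatment did to these regulators in the mutant. Values are FPKM (fragments mapped, scaled by transcript length and library size), which are per length and can be set side by side between genes.

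Jasmonate signalling works by release from repression. In resting cells JAZ proteins hold MYC2 and its relatives inactive together with the adaptor NINJA and the co-repressor TOPLESS. The hormone joins JAZ proteins to the receptor COI1 and they are degraded, which frees MYC2, MYC3 and MYC4 to bind G-box DNA and switch on their targets. The JAM proteins are related basic helix-loop-helix factors that bind the same kind of site but repress, and so limit the response. ANAC019, ANAC055 and ANAC072 (also called RD26) are known as targets of MYC2 when plants meet coronatine, a bacterial mimic of the hormone, and they lower salicylic acid accumulation. The labels do not say whether the strain used makes coronatine.

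The deposited table names genes and holds no coordinates, so promoter sequence was read from the RefSeq genome of build TAIR10.1 with its own annotation, for all 9 genes. The G-box CACGTG, the site MYC proteins are known to bind, was found on either strand within the 1000 bases before the annotated start of 5 of the 9 genes, against 14.8% of the 27443 protein-coding genes whose window of that length lay within the chromosome. The 5 were JAM1, JAM2, ANAC019, ANAC055 and ANAC072. The window of ANAC019 held 4 matches, those of JAM2 and ANAC072 held 2 each, and those of JAM1 and ANAC055 held 1 each. The match nearest to the start is shown for each with 12 bases on both sides, since these are the stretches a MYC or JAM protein could read, and capitals mark CACGTG:
JAM1 (chr2:19093665-19093694, minus strand): taggtacatacaCACGTGtgtacacaaaac
JAM2 (chr1:108268-108297, plus strand): cCACGTGaacttCACGTGcttttcacgccc
ANAC019 (chr1:19698591-19698620, minus strand): atctaactgacaCACGTGtcagaattcaaa
ANAC055 (chr3:5234106-5234135, plus strand): atcattcacttaCACGTGttttttcttctt
ANAC072 (chr4:13709578-13709607, minus strand): caactggcttaaCACGTGtcgataaacttt
These matches begin 309, 666, 126, 339 and 425 bases before the start, in the same order. The window of JAM2 holds its second match 11 bases further from the start, so both lie in the printed stretch.

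The variant CACATG, read as CACATG or CATGTG, was found in 3 of the 9 windows of 1000 bases (MYC2, JAM1 and ANAC055), against 37.7% of all genes. The variant AACGTG, read as AACGTG or CACGTT, was found in 4 (MYC2, JAM1, JAM2 and ANAC019), against 23.8%. The 3 motifs share letters but no match of one can be a match of another at the same position. Within 250 bases of the start, matches were found upstream of MYC2 and ANAC019 alone among the 9. ANAC019 held a CACGTG and an AACGTG there (6.49% and 7.54% of all genes hold each in that window), and MYC2 held an AACGTG that begins 115 bases before its start. The full 250 bases of both are shown because they carry the matches nearest to a start, with the motifs in capitals:
MYC2 (chr1:11801408-11801657, minus strand): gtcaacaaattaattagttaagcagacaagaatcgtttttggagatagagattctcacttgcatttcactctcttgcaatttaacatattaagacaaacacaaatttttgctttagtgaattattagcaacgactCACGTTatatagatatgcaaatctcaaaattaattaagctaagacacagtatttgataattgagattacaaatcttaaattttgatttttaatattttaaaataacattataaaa
ANAC019 (chr1:19698483-19698732, minus strand): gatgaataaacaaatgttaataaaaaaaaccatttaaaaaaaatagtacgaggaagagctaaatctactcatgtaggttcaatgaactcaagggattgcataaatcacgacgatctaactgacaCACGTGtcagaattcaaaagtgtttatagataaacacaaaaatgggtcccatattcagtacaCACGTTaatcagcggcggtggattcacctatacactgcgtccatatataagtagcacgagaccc
MYC3, MYC4 and JAM3 held none of the 3 motifs in 1000 bases. A match is a run of letters and no evidence of binding, windows were not screened for neighbouring genes, and the absence of a match says nothing of sites elsewhere.

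**Figure D1:**
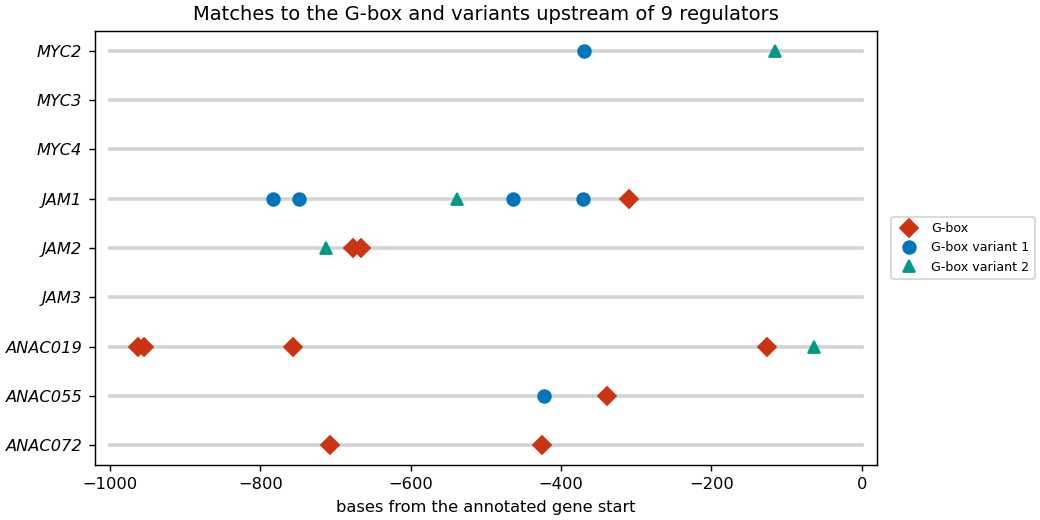
Positions of the 3 motifs in the 1000 bases upstream of each of the 9 genes; the x axis is the distance in bases from the annotated gene start, variant 1 is CACATG and variant 2 is AACGTG. Matches lie upstream of MYC2, JAM1, JAM2 and the 3 NAC genes, while the lines of MYC3, MYC4 and JAM3 are empty.

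In position, ANAC019 and ANAC055 each lie next to another NAC gene, ANAC018 and ANAC056, with no protein-coding gene between. MYC4 lies near the mutated gene itself: 31034 bases and 7 protein-coding genes separate MYC4 from AHL13 in TAIR10.1. In that annotation MYC2, MYC3, MYC4, JAM1 and JAM2 are written as a single exon, JAM3 as 2 exons and the NAC genes as 3 exons.

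The libraries differed in depth and in the levels of clock genes. FPKM hold no counts, and the steps between the lowest values put the libraries at different depths: relative to control replicate 1, Pst hrcC replicate 3 was at 0.81 times its depth and the other 4 libraries at 3 to 4.9 times. The morning clock gene CCA1 was at 14.5 and 16.0 FPKM in control and Pst hrcC replicate 1 and between 0.162 and 0.233 FPKM in the other libraries. The evening gene TOC1 was at 6.28 and 6.58 FPKM in the replicate 1 libraries and between 46.3 and 66.9 FPKM in the others. Of 9 tested clock genes none passed the test of treatment, which 0.290% of all genes passed. Markers fit the label of whole seedlings, with all 10 root markers above 0 in every library (summed 43.2 to 60 FPKM), 5 green shoot markers summing to at least 15700 FPKM, and 3 seed markers never above 0.427 FPKM in sum. Of the root markers 6 reached 1 FPKM in control replicate 3, 8 in Pst hrcC replicate 2 and 9 in each other library. AHL13 was read at 2.17 to 2.47 FPKM in controls and 1.98 to 2.43 FPKM after treatment, and since the place of the insertion is not given in the sources used here this does not check the mutation.

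MYC2, ANAC019 and ANAC055 were each several-fold higher on average after Pst hrcC, and JAM1 was higher by a smaller factor. MYC3, JAM2 and ANAC072 were slightly higher on average, and MYC4 and JAM3 stood within the control range or next to it. The ratio of group means was 6.33 for MYC2, 2.60 for JAM1, 9.23 for ANAC019 and 3.86 for ANAC055. In 8 of the 9, JAM3 being the exception, the treated library was higher in all 3 same-numbered pairs, against 21.2% of all genes. In 6 of the 9 genes every treated library lay above every control, against 7.66% of all 16923 genes tested, and in none did every treated library lie below (3.61% of all genes). ANAC019 is in both counts and passed the filter on low values through its treated libraries alone. No member passed in limma at an adjusted p under 0.05, a call that 0.290% of all genes reached (0.284% higher, 0.00591% lower). At an unadjusted p under 0.05, 4 members were higher and none lower, against 5.18% and 1.63% of all genes. ANAC019 is among these 4 too. The median log2 change of the 9 was 0.40, against 0.04 over all genes tested. In bulk seedlings, more cells with a transcript and more transcript per cell cannot be told apart.

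**Figure D2:**
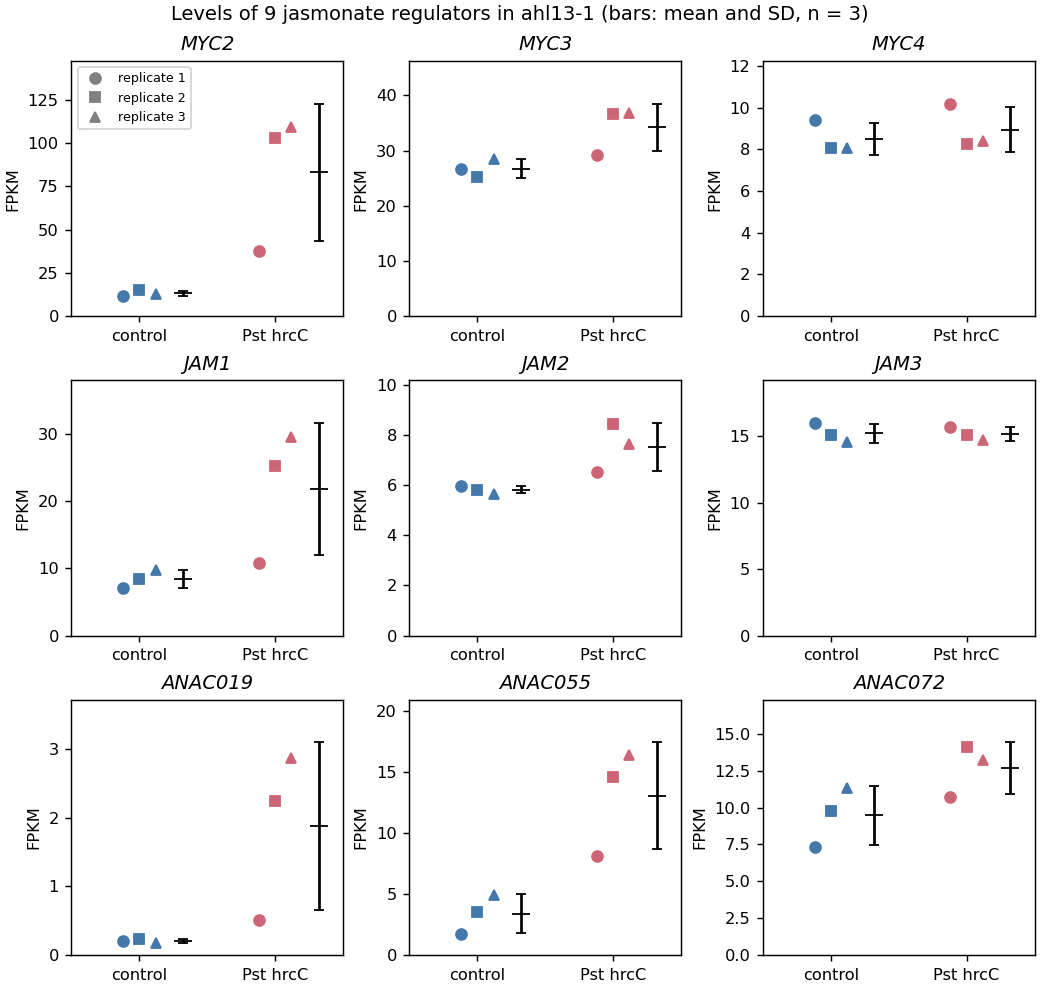
FPKM (y axis, from 0) of the 9 regulators in control and Pst hrcC libraries; symbols mark replicates 1, 2 and 3 and the bars the mean and SD (n = 3). Treated points of MYC2, JAM1, ANAC019 and ANAC055 lie above the controls with replicate 1 lowest, and those of MYC4 and JAM3 lie among or close to the controls.

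MYC2, the leading activator of the pathway, was at 11.8, 14.9 and 12.7 FPKM in control replicates 1, 2 and 3 and at 37.6, 103 and 109 FPKM in the treated libraries of the same numbers. The groups did not overlap, and treated replicate 1 stood well below the other two treated libraries. The means were 13.1 ± 1.56 and 83.2 ± 39.6 FPKM (SD, n = 3 each), a log2 change of 2.43 ± 0.41 (SE) on the log2(FPKM + 1) scale, which understates low genes (limma adjusted p = 0.109). Of the genes tested 83 had a larger log2 change. Between same-numbered libraries MYC2 was 3.18, 6.94 and 8.55 times higher in replicates 1, 2 and 3. Without Pst hrcC replicate 1, its lowest treated library, MYC2 passed (log2 change 2.93, limma adjusted p = 0.00199). Leaving out any other library on its own gave limma adjusted p from 0.235 to 0.449.

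MYC3, which acts alongside MYC2, was the most abundant of the 9 in controls, at 26.6, 25.2 and 28.5 FPKM. After treatment MYC3 was at 29.2, 36.6 and 36.8 FPKM. The treated values lay above the controls, in replicate 1 by little. The means were 26.8 ± 1.68 and 34.2 ± 4.34 FPKM (SD, n = 3 each), and the log2 difference came to 0.34 ± 0.15 (SE, limma adjusted p = 0.808). MYC4, the third activator of the set, was at 9.40, 8.05 and 8.08 FPKM in control replicates and 10.2, 8.25 and 8.42 FPKM with Pst hrcC. In both groups replicate 1 was highest, and the groups overlapped. The log2 difference of MYC4 was 0.06 ± 0.14 (SE, limma adjusted p = 1.00).

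The makeup of the MYC set differed between the groups. MYC2 made up 24.7%, 30.9% and 25.8% of the summed FPKM of the 3 MYC genes in controls and 48.8%, 69.7% and 70.7% after treatment. The sum itself was 47.8, 48.1 and 49.3 FPKM in control replicates and 77, 148 and 154 FPKM with Pst hrcC. MYC3 led in all 3 controls and MYC2 in all 3 treated libraries. The log2 ratio of MYC2 to MYC3 was -1.03 ± 0.23 in controls and 1.14 ± 0.67 after treatment (SD, n = 3 each).

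JAM1, a repressor that competes with MYC2 for its sites, was at 7.05, 8.35 and 9.79 FPKM in control replicates and 10.8, 25.2 and 29.5 FPKM with Pst hrcC. The groups did not overlap, but treated replicate 1 lay only just above control replicate 3. The means were 8.40 ± 1.37 and 21.9 ± 9.82 FPKM (SD, n = 3 each), and the log2 change came to 1.18 ± 0.36 (SE, limma adjusted p = 0.487). Within pairs JAM1 was 1.53, 3.02 and 3.02 times higher. Without Pst hrcC replicate 1 JAM1 passed (log2 change 1.60, limma adjusted p = 0.0253). Leaving out any other library on its own gave a limma adjusted p of at least 0.619.

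JAM2 was at 5.97, 5.83 and 5.67 FPKM in control replicates and 6.53, 8.43 and 7.64 FPKM with Pst hrcC. Its treated values lay above the controls, with 0.32 ± 0.13 as the log2 difference (SE, limma adjusted p = 0.741). JAM3 was the steadiest of the 9, at 16.0, 15.1 and 14.6 FPKM in control replicates and 15.7, 15.1 and 14.7 FPKM with Pst hrcC. The groups of JAM3 overlapped almost fully, and the log2 difference was -0.01 ± 0.12 (SE, limma adjusted p = 1.00). JAM3 led the repressors in all controls, with 48.6% to 55.1% of their summed FPKM, and JAM1 led in treated replicates 2 and 3 with 51.8% and 56.9%. In treated replicate 1 JAM3 still led, with 47.5% against 32.7% for JAM1.

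The summed level was higher in treated libraries for the MYC genes and for the JAM genes, in unequal measure. The ratio of summed MYC to summed JAM FPKM was 1.65, 1.64 and 1.64 in controls and 2.33, 3.04 and 2.97 after treatment. The ratio of MYC2 to JAM1 alone was 1.67, 1.78 and 1.30 in controls and 3.48, 4.09 and 3.69 after treatment. Both ratios were higher in every treated library than in any control. They describe transcripts and not proteins.

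**Figure D3:**
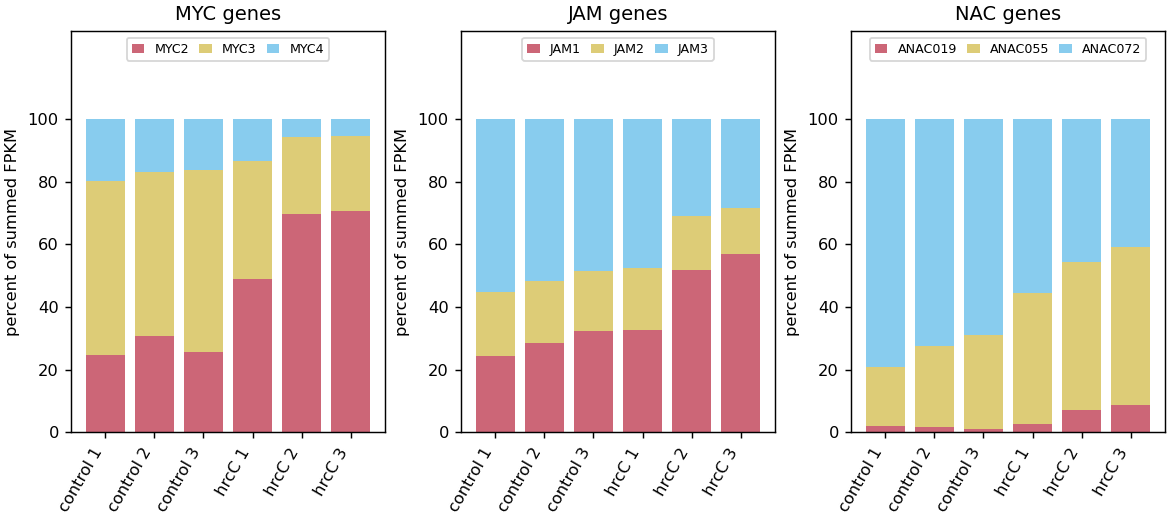
Percent of summed FPKM (y axis) that each gene holds within the MYC, JAM and NAC sets, for every library. MYC2 holds 24.7% to 30.9% of its set in controls and 48.8% to 70.7% in treated libraries, and ANAC055 holds 18.8% to 29.9% and 41.9% to 50.4%.

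ANAC019 was close to the limit of detection in controls, at 0.203, 0.228 and 0.178 FPKM, and stood at 0.510, 2.24 and 2.88 FPKM after treatment. The estimated depth puts these at about 2, 10 and 5 fragments in controls and about 21, 77 and 20 after treatment. The groups did not overlap, and treated replicate 1 was nearest to the controls. ANAC019 gave a log2 change of 1.15 ± 0.35 (SE, limma adjusted p = 0.480). A pseudocount of 0.1 gave 2.42 (limma adjusted p = 0.413). ANAC019 passed the filter on low values through its treated libraries. Without Pst hrcC replicate 1 it passed the test (log2 change 1.56, limma adjusted p = 0.0172). Leaving out any other library on its own gave a limma adjusted p of at least 0.646.

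ANAC055, the close relative of ANAC019, was at 1.74, 3.51 and 4.88 FPKM in control replicates and 8.07, 14.6 and 16.4 FPKM with Pst hrcC. The groups did not overlap, and replicate 1 was lowest in both, so that the pairs differed by similar amounts: 4.64, 4.17 and 3.36 times. The means were 3.37 ± 1.57 and 13.0 ± 4.37 FPKM (SD, n = 3 each), a log2 change of 1.69 (SE 0.35, limma adjusted p = 0.200). With the replicate number as a block ANAC055 rose (log2 change 1.69 ± 0.11 SE, limma adjusted p = 0.0299), the only one of the 9 to pass in that fit, in which 0.266% of all genes were called higher. With a single term for replicate 1, 0.697% of all genes were called higher, MYC2 and ANAC055 among them (limma adjusted p = 0.0298 and 0.0163).

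ANAC072, known as a dehydration-responsive factor, was the leading NAC gene of the 3 in controls, at 7.31, 9.80 and 11.3 FPKM. After treatment ANAC072 was at 10.7, 14.1 and 13.2 FPKM. The lowest treated value lay under the highest control, but within each pair the treated library was higher, by 1.46, 1.44 and 1.17 times. The log2 difference was 0.40 ± 0.19 (SE, limma adjusted p = 0.857). ANAC055 moved from 18.8%, 25.9% and 29.9% of the summed NAC FPKM in controls to 41.9%, 47.2% and 50.4% after treatment. The log2 ratio of ANAC055 to ANAC072 was -1.59 ± 0.44 in controls and -0.02 ± 0.36 after treatment (SD, n = 3 each).

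The neighbours of the NAC genes on the chromosome had smaller log2 differences, with no test of that contrast. ANAC018, beside ANAC019, was at 3.18, 2.05 and 3.91 FPKM in control replicates and 3.45, 1.84 and 2.88 FPKM with Pst hrcC, with -0.12 ± 0.24 as the log2 difference (SE, limma adjusted p = 1.00). ANAC056, beside ANAC055, was at 8.40, 6.86 and 9.50 FPKM in control replicates and 10.2, 8.68 and 11.3 FPKM with Pst hrcC, with 0.26 ± 0.17 as the log2 difference (SE, limma adjusted p = 1.00). The groups of both neighbours overlapped. Among 10 relatives of the members, 7 were tested and none passed, against 0.290% of all genes, with a median log2 difference of 0.03. The relatives with the smallest p were ATAF2, at 18.5 FPKM on average in controls and 26.3 FPKM with Pst hrcC (limma adjusted p = 0.661), and NAP, a factor of leaf senescence, at 4.32 and 7.46 FPKM (limma adjusted p = 0.911). MYC5 and bHLH14, relatives of the MYC and JAM genes, stayed under 0.5 FPKM in every library and were not tested.

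By level in controls the order was MYC3, JAM3, MYC2, ANAC072, MYC4, JAM1, JAM2, ANAC055 and ANAC019. Of these neighbours JAM3 overlapped MYC2, ANAC072 overlapped MYC4, and MYC4 overlapped JAM1. After treatment the order was MYC2, MYC3, JAM1, JAM3, ANAC055, ANAC072, MYC4, JAM2 and ANAC019, and MYC2 stood above MYC3 in every treated library. The neighbours from MYC3 down to ANAC072 overlapped each in turn, as did MYC4 and JAM2.

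The size of the change differed between the pairs for some members and not for others. The replicate 1 pair had the smallest log2 difference for MYC2 (1.59 against 2.71 and 3.00 in pairs 2 and 3), JAM1 (0.55 against 1.49 and 1.50) and ANAC019 (0.33 against 1.40 and 1.72). For ANAC055 the pairs gave 1.73, 1.79 and 1.56, and for ANAC072 0.49, 0.49 and 0.21. The median over all tested genes was 0.07, 0.02 and 0.00 in the 3 pairs. The replicate 1 libraries are those with high CCA1 and low TOC1, and the part of the clock genes' state in these differences was not tested.

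**Figure D4:**
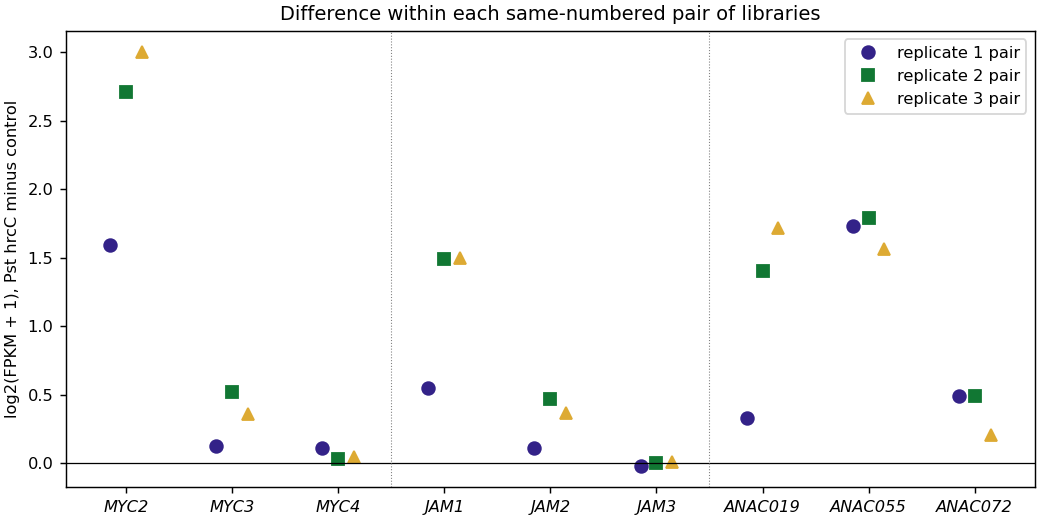
Difference in log2(FPKM + 1), Pst hrcC minus control (y axis), within each same-numbered pair for the 9 genes. The replicate 1 pair is lowest for MYC2, MYC3, JAM1, JAM2 and ANAC019, and the 3 pairs lie between 1.56 and 1.79 for ANAC055.

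**Figure D5:**
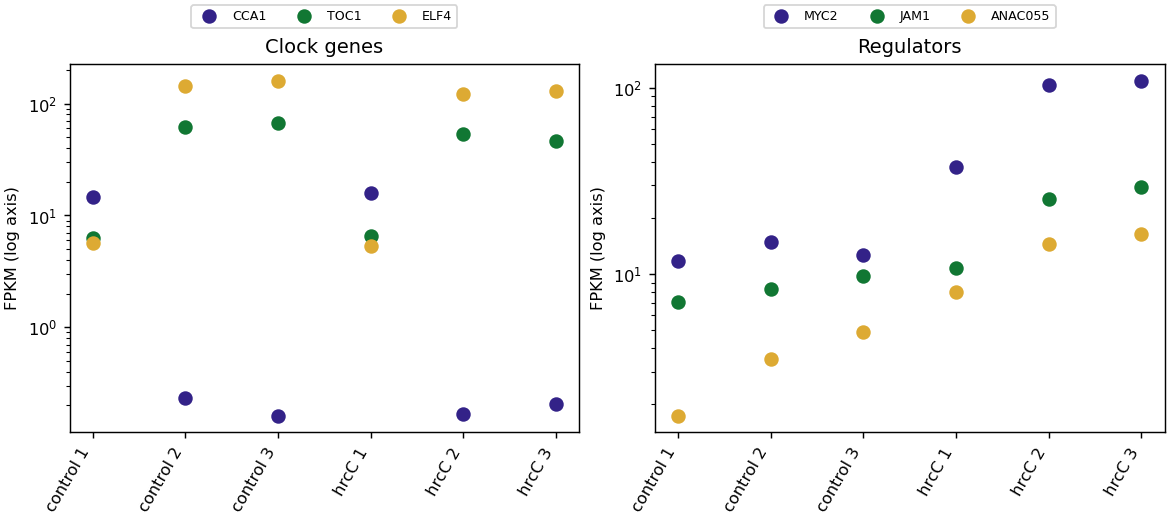
FPKM on a log axis in the 6 libraries for clock genes CCA1, TOC1 and ELF4 (left) and for MYC2, JAM1 and ANAC055 (right). The replicate 1 libraries stand apart for the clock genes in both groups, with TOC1 at 6.28 and 6.58 FPKM, while MYC2 at 37.6 FPKM in treated replicate 1 is lower than in the other treated libraries.

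Without the replicate 1 pair 4 members passed, ANAC019 among them, which was tested only because its treated libraries lifted its mean over the filter, so its call adds no support. MYC2 rose by 2.86 ± 0.15, JAM1 by 1.49 ± 0.16, ANAC019 by 1.56 ± 0.17 and ANAC055 by 1.68 ± 0.19 on the log2 scale (SE, n = 2 libraries each, limma adjusted p = 0.00406, 0.0325, 0.0344 and 0.0344). That fit called 1.02% of all genes higher and 0.0532% lower. The same 4 passed with array weights, which called 2.19% of all genes higher, and MYC2, JAM1 and ANAC019 passed without Pst hrcC replicate 1 alone, which called 0.999%. Without the pair MYC3 and JAM2 did not pass (0.44 ± 0.14 and 0.42 ± 0.14, SE, limma adjusted p = 0.399 and 0.439), and ANAC072 gave 0.35 ± 0.15 (SE, limma adjusted p = 0.599). MYC4 and JAM3 gave log2 differences of 0.04 ± 0.13 and 0.00 ± 0.13 (SE).

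Likeness was measured as the root mean square difference between profiles of log2(FPKM + 1) over the 6 libraries, each centred on its own mean, among 16923 tested genes. The closest to MYC2 were AT1G54020 (0.0973), the myrosinase-binding protein gene MBP2 (0.150) and the repressor gene JAZ5 (0.168). JAZ5 was at 0.170, 0.139 and 0.0595 FPKM in control replicates and 2.91, 7.67 and 9.17 FPKM with Pst hrcC. Its treated replicate 1 was the lowest of its group, as in MYC2, but a choice by likeness of profile brings this with it. AT1G54020, MBP2 and JAZ5 averaged 0.0428, 0.813 and 0.123 FPKM in controls. They passed the filter on low values through their treated libraries, so their closeness adds no support. The closest to JAM1 were AT1G20490 (0.0728), DHS1 (0.0861), which encodes the entry enzyme of the shikimate pathway, and AT4G31110 (0.105). ANAC019 was closest to AOC4 (0.0845), an allene oxide cyclase of jasmonate synthesis, then to DHS1 (0.111) and AT1G06640 (0.113). JAM1 and ANAC019 lay close to each other (0.133), each among the 7 genes nearest to the other. The log2(FPKM + 1) scale understates low genes, so closeness here does not mean an equal ratio of change. The ratio of group means was 9.23 for ANAC019 and 2.60 for JAM1, and it was 53.7 for JAZ5 and 6.33 for MYC2. ANAC055 was closest to MES5 (0.141), AT1G15010 (0.203) and IAR3 (0.214), an amidohydrolase that cleaves auxin and jasmonate conjugates.

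The members with small differences had neighbours of other kinds. MYC3 was closest to UMAMIT22 (0.0352), NiaP (0.0415) and AT1G28570 (0.0621), and JAM2 to AT4G25620 (0.0372), BLH1 (0.0553) and AT1G01800 (0.0614). MYC3 and JAM2 differed from each other by 0.0770. ANAC072 was closest to AT2G25910 (0.0343), the kinase gene S6K2 (0.0601) and HYD1 (0.0628). MYC4 was closest to the chaperone gene J3 (0.0126), AT3G27240 (0.0184) and FH6 (0.0199), and JAM3 to AT2G32730 (0.0300), SNL4 (0.0303) and LSF2 (0.0322). Flat profiles lie close to many genes, so the small values of MYC4 and JAM3 carry little.

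Genes for the proteins that MYC factors act with showed no called change. Of 20 genes for the receptor complex, co-repressors, Mediator, stability factors and antagonists of MYC2, all were tested and none passed, with a median log2 difference of 0.06 and a range from -0.18 to 0.57. Only 0.290% of all genes passed, so the lack of a call among 20 says little. NINJA, the adaptor between JAZ proteins and TOPLESS, had the smallest p, at 13.6, 20 and 20.1 FPKM in control replicates and 18.2, 32.5 and 32.2 FPKM with Pst hrcC (log2 difference 0.57 ± 0.27 SE, limma adjusted p = 0.849). BPM3, an adaptor that targets MYC2 for degradation, was next, at 6.17 and 7.14 FPKM on average (limma adjusted p = 0.985). The receptor gene COI1 was at 9.26, 9.17 and 8.61 FPKM in control replicates and 9.38, 8.46 and 8.28 FPKM with Pst hrcC.

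The JAZ repressors, which bind MYC proteins and are themselves MYC targets, were called higher in part. Of 13 JAZ genes 11 were tested, 4 rose (JAZ6, JAZ7, JAZ8 and JAZ9), none fell and 7 did not pass, with a median log2 change of 2.25, against 0.284% of all genes called higher and a median of 0.04. JAZ8, at 0.112 FPKM on average in controls, passed the filter through its treated libraries, so its calls add no support. JAZ5 and JAZ10, not called in this fit, averaged 0.123 and 0.391 FPKM in controls and passed the filter in the same way. All of these are in the median and in the counts that follow. With the replicate block 4 rose, JAZ2 in place of JAZ8 (limma adjusted p = 0.0473 for JAZ2 and 0.0611 for JAZ8). JAZ2 was at 3.94, 5.57 and 7.19 FPKM in control replicates and 15.5, 40.2 and 51.2 FPKM with Pst hrcC (limma adjusted p = 0.153 without the block). The number that rose fell to 0 without control replicates 2 or 3 or Pst hrcC replicates 2 or 3, and to 1 without control replicate 1, and it was 8 without Pst hrcC replicate 1. It was 0 with no filter on low values, 1 with a pseudocount of 5, 2 of the 6 genes averaging 5 FPKM or more, 9 under array weights, and 7 both with a term for replicate 1 and without the replicate 1 pair. Of all genes 2.19% were called higher under array weights and 0.999% without Pst hrcC replicate 1.

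Of 13 genes commonly read as the MYC branch (synthesis, turnover and storage protein genes), 12 were tested. Of these 6 rose (LOX2, AOC1, OPR3, TAT3, CORI3 and ST2A), against 0.284% of all genes, none fell and 6 did not pass. The median log2 change was 3.26, against 0.04 over all genes tested. TAT3, at 0.0482 FPKM on average in controls, passed the filter through its treated libraries, so its calls add no support. LOX3 and CYP94C1, which were not called, also averaged under 1 FPKM in controls. With the replicate block 2 rose, TAT3 and AOC1 (limma adjusted p = 0.0299 and 0.0487). VSP2, a storage protein gene used as a marker of this branch, was at 10.5, 9.83 and 13.7 FPKM in control replicates and 96.8, 607 and 762 FPKM with Pst hrcC (log2 difference 4.87 ± 0.75 SE, limma adjusted p = 0.0825). Treated replicate 1 was again the lowest. The count was 0 without control replicates 2 or 3 or Pst hrcC replicates 2 or 3, 4 without control replicate 1 and 7 without Pst hrcC replicate 1. It was 0 with no filter on low values, 2 with a pseudocount of 5, 3 with quantile normalization and 10 with array weights. Of all genes 0.266% were called higher with the replicate block, 0.999% without Pst hrcC replicate 1 and 2.19% with array weights. AOC1 and VSP2 have close copies, so the division of reads among the copies is uncertain.

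Of 7 genes of the ERF branch, which MYC2 is known to oppose, 6 were tested. Of these 3 rose, the defensin copies PDF1.2a, PDF1.2b and PDF1.2c, against 0.284% of all genes, none fell and 3 did not pass. The median log2 change was 3.71, against 0.04 over all genes tested. PDF1.2b and PDF1.2c, at 0.862 and 0.51 FPKM on average in controls, passed the filter through their treated libraries, so their calls add no support. The division of reads among the 3 copies is uncertain. With the replicate block 2 rose, PDF1.2b and PDF1.2c (limma adjusted p = 0.0487 and 0.0194), and 1 rose without control replicates 2 or 3 or Pst hrcC replicates 2 or 3 and 2 without control replicate 1. The count was 1 with no filter on low values, 1 with a pseudocount of 0.1 and 5 with array weights, where 2.19% of all genes were called higher. ORA59, the factor that leads this branch, was at 3.10, 5.24 and 7.72 FPKM in control replicates and 26.7, 14.9 and 14.5 FPKM with Pst hrcC (limma adjusted p = 0.200). In ORA59 treated replicate 1 was the highest of its group, where in MYC2 it was the lowest.

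The MYB factors of glucosinolate synthesis, which bind MYC2, MYC3 and MYC4, showed no called change. Of 6 genes 5 were tested and none passed in limma, with a median log2 difference of 0.73. At an unadjusted p under 0.05, 3 were higher and none lower, against 5.18% and 1.63% of all genes. MYB76 is among these 3, averaged 0.108 FPKM in controls and passed the filter through its treated libraries. The number that passed was 1 with a pseudocount of 0.1, after rescaling over nuclear genes or without Pst hrcC replicate 1, 3 with array weights and 2 with a term for replicate 1. Of all genes 2.19% were called higher with array weights and 0.697% with that term. MYB76 was at 0.124, 0.0253 and 0.174 FPKM in control replicates and 2.40, 3.19 and 7.05 FPKM with Pst hrcC (log2 difference 2.13 ± 0.32 SE, limma adjusted p = 0.0778). MYB29 was at 3.51, 1.49 and 1.61 FPKM in control replicates and 9.01, 5.16 and 8.34 FPKM with Pst hrcC (limma adjusted p = 0.196).

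Genes known to answer to the 3 NAC factors showed no called change. Of 8, covering salicylic acid metabolism, dehydration and chlorophyll breakdown, 5 were tested and none passed in limma (0 at an unadjusted p under 0.05), with a median log2 difference of 0.20. Of all genes 0.290% passed, and 5.18% were higher and 1.63% lower at an unadjusted p under 0.05. The lack of a call among 5 genes therefore says little. The salicylic acid synthase gene ICS1, known to be repressed by these factors, was at 0.905, 0.560 and 0.784 FPKM in control replicates and 0.917, 0.552 and 0.597 FPKM with Pst hrcC, under the filter. BSMT1, a methyltransferase gene they activate, had a listed value of 0 in each control and of 0.158, 0.378 and 0.351 FPKM with Pst hrcC, also under the filter. PAO and ERD1 had the smallest p, with log2 differences of 0.50 ± 0.26 and 0.40 ± 0.27 (SE, limma adjusted p = 0.914 and 1.00). NYC1, of chlorophyll b breakdown, was at 6.14 and 5.98 FPKM in the replicate 1 libraries and between 15.2 and 34.3 FPKM in the others.

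ANAC072 is also read as a marker of abscisic acid, and the marker genes of that hormone showed no called change and differed in sign. Of 13, 9 were tested and none passed in limma, with 3 log2 differences above 0 and a median of -0.41. At an unadjusted p under 0.05, 4 were lower and 0 higher, against 1.63% and 5.18% of all genes. NCED3, which encodes an enzyme of abscisic acid synthesis, was at 1.70, 2.32 and 1.84 FPKM in control replicates and 0.655, 0.784 and 0.820 FPKM with Pst hrcC (log2 difference -0.75 ± 0.14 SE, limma adjusted p = 0.155). RAB18 was at 7.98, 4.53 and 8.87 FPKM in control replicates and 3.72, 1.63 and 3.87 FPKM with Pst hrcC (limma adjusted p = 0.514). In both genes, and in RD29A and ABI2, every treated library lay below every control. That makes 4 of the 9 tested, against 3.61% of all genes. In 0 of the 9 did every treated library lie above every control, against 7.66% of all genes. KIN2, a cold and dehydration gene, went the other way, at 24.0, 57.4 and 59.0 FPKM in control replicates and 49.6, 101 and 88.2 FPKM with Pst hrcC, higher in all 3 pairs (log2 difference 0.80 ± 0.42 SE, limma adjusted p = 0.914). COR15A and ABI1 also had log2 differences above 0 (0.31 and 0.09). Without the replicate 1 pair 1 of the 9 fell, RD29A (limma adjusted p = 0.0343), against 0.0532% of all genes called lower. With array weights 2 of the 9 fell, against 37 of all 16923 genes called lower. RD29A, ABI2, KIN2, COR15A and ABI1 are outside the naming rule and were chosen after their values were seen.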

How the data were processed

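Per the submitters' processing notes, FastQC, TopHat2 2.1.1, Cufflinks 2.2.1 and TAIR10 were used; the annotation, strandedness and settings were not found in these sources. The authors deposited FPKM values of 27371 genes with 1 column per library, used without rescaling. Groups and replicate numbers came from titles. The labels do not say whether replicates are separate cultures; if not, the p-values reflect spread among these libraries that may be technical.

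The members and gene lists were chosen with earlier results of these data known. The test was limma 3.58.1 (R 4.3.3) on log2(FPKM + 1) for the 16923 genes averaging 1 FPKM or more, with a variance trend, treatment alone in the model, two-sided tests and Benjamini-Hochberg adjustment over all genes tested (threshold 0.05). On simulated data of 16923 genes for this comparison, 40.4% of changes of 1, 92.8% of 2, 98.4% of 3 and 99.6% of 4 on the log2 scale were recovered; the simulated libraries shared no structure, and recovery with such structure was not tested.

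Named genes are the 9 members, the members of each list that passed in the main or the blocked fit or else the 2 with the smallest p, and the 3 genes most like each member; others named beside these were chosen after their values were seen. The lists cover relatives, partners, JAZ genes, the MYC and ERF branches, NAC targets, abscisic acid markers, glucosinolate MYB genes, clock, root (9 tested, none passed in limma, 1 higher at an unadjusted p under 0.05), shoot (5 tested, none passed, 0 at an unadjusted p under 0.05) and seed markers (0 tested). Same-numbered libraries deviated together (correlations of deviations across genes of 0.43, 0.17 and 0.13, all over the limit of 0.1 set for pairing). Control replicate 3 correlated more with Pst hrcC replicate 2 (0.21) than with its own number, so the values set replicate 1 apart and do not tell numbers 2 and 3 from each other. The labels give no basis for pairing, and the replicate block was used in an alternative fit only. Depth was estimated from the mode of the lowest FPKM times transcript length among genes of 1 transcript, checked on simulated counts. Promoters came from the RefSeq TAIR10.1 genome by its own annotation. Python 3.11.15 with pandas 2.3.3 and matplotlib 3.10.9 was used.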

Additional observations from a re-analysis of the deposited data

How the results depend on the processing

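The number of members that passed in limma was 0 in the reported fit and 1 with the replicate block (ANAC055), 2 with a term for replicate 1 (MYC2 and ANAC055, an alternative chosen after seeing the data), 4 when the replicate 1 pair was left out and 4 under array weights (MYC2, JAM1, ANAC019 and ANAC055 in both). Leaving out 1 library gave 0 to 3 members, the 3 without Pst hrcC replicate 1 (MYC2, JAM1 and ANAC019). Pseudocounts of 0.1 and 5, median-of-ratios scaling, quantile normalization, rescaling over nuclear genes, no variance trend, no filter and a mean of at least 5 FPKM gave 0. ANAC019 was not tested after rescaling over nuclear genes or at a mean of at least 5 FPKM. Among all genes tested the 49 called became 407 with array weights, 2 with no filter, 17 with a pseudocount of 5, 115 after rescaling over nuclear genes, 129 with a term for replicate 1, 182 without the replicate 1 pair, 47 with the replicate block and 2 to 180 when leaving out 1 library.

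Across 18 alternatives the log2 change of MYC2 lay between 2.16 and 2.93, that of JAM1 between 0.91 and 1.60 and that of ANAC055 between 1.09 and 1.98, and across 16 that of ANAC019 between 0.39 and 2.42. MYC3, JAM2 and ANAC072 stayed above 0 in all 18 and passed in none. MYC4 lay between -0.02 and 0.13, reversed at -0.02 without Pst hrcC replicate 1. JAM3 lay between -0.08 and 0.03, reversed when leaving out 1 library (from -0.03 to 0.03, above 0 without Pst hrcC replicate 3 or control replicate 1) and at 0.0032 without the replicate 1 pair. The block changed no other call of a member. FPKM hold no counts, and the ANAC019 value of control replicate 1 rests on about 2 fragments.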
